A study of Mus musculus with 6 samples.

Results

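Retinal ganglion cell (RGC) nuclei in which no transcript of Eomes or Opn4 was counted were examined in single-nucleus RNA sequencing of degenerating mouse retina. A nucleus was selected on at least 2 unique molecular identifiers (UMIs) of Slc17a6 and at least 1 of Rbpms, 0 UMIs of Eomes and Opn4, and 0 UMIs of Slc6a9, Trpm1 and Abca8a, after nuclei with 500 UMIs or fewer, under 200 genes or 5% or more mitochondrial counts had been set aside. The rule left 806 of 56205 retained nuclei, or 1.43%. Slc17a6 encodes the vesicular glutamate transporter of ganglion cells, Rbpms an RNA-binding protein that marks them, Eomes a transcription factor of the intrinsically photosensitive types and Opn4 their photopigment melanopsin. Slc6a9, Trpm1 and Abca8a mark glycinergic amacrine, ON bipolar and Muller cells, so those genes were used to keep such nuclei out. These 7 genes, and Gad1, which chose the amacrine nuclei described later, were left out of the tests between populations and of the interaction. They were not taken out of the tests of IL-27 against saline within a population, where none of them is named.

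All mice carried the rd10 allele of Pde6b on the B6.CXB1 strain (B6.CXB1-Pde6b rd10/J), the saline controls included, so no retina with intact rods was compared. Eyes received either 20 ng of recombinant IL-27 or saline into the vitreous at postnatal day 18, and retinas were collected at day 20. Saline was given to 3 libraries, numbered 1, 2 and 6, and IL-27 to 3 others, numbered 4, 5 and 10. The sources used here do not say how many animals went into a library, so every p-value measures the spread between these libraries.

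Ganglion cells are the output neurons of the retina. They collect signals from bipolar and amacrine cells, turn them into action potentials at the initial segment of the axon and carry them through the optic nerve to the brain. They form many types that differ in transcription factors, neuropeptides and calcium-binding proteins. The Eomes or Opn4 group, left out here where a UMI of either gene was counted, holds types that respond to light by themselves. In rd10 retina the rods die first and ganglion cells outlast them.

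The selected nuclei numbered 155, 128 and 127 in saline replicates 1, 2 and 6, and 164, 141 and 91 in IL-27 replicates 4, 5 and 10. As shares of the retained nuclei these were 1.57%, 1.44% and 1.35% with saline and 1.75%, 1.53% and 0.968% with IL-27. IL-27 replicate 10 had the lowest share, IL-27 replicate 4 the highest, and the groups overlapped. The mean share was 1.45% ± 0.11 (SD, n = 3) with saline and 1.41% ± 0.401 (SD, n = 3) with IL-27 (exact two-sided permutation test, p = 0.9; the smallest p this design allows is 0.1). Without IL-27 replicate 10 the difference of -0.0396 percentage points became 0.183. In sums over nuclei, fewer ganglion cells and less RNA per cell cannot be told apart from such shares.

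The selected nuclei were deep. The median nucleus held 11506, 12164.5 and 9536 UMIs with saline and 11724.5, 11125 and 11099 with IL-27, against 2898 to 3959 over all retained nuclei of a library. A rule that asks for UMIs of 2 genes favours deep nuclei. The sums held 1070800 to 2031272 UMIs per library. No barcode of a selected nucleus occurred among the selected nuclei of another library, and pairs of libraries shared 18 to 30 barcodes in all. Xist was expressed by saline replicate 2 and IL-27 replicate 5 only, at 948 and 954 CPM (UMIs of the gene scaled to a common library sum), and the other 4 libraries expressed the Y-linked gene Uty at 182 to 196 CPM, so each group held 1 Xist-expressing library.

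The label was checked on markers that the rule did not use. Pou4f1, a POU-domain transcription factor that ganglion cells need to differentiate and survive, stood at 82.5, 64.2 and 84.1 CPM with saline and at 63.5, 82.0 and 93.4 CPM with IL-27. In amacrine nuclei of the same libraries (at least 2 UMIs of Gad1, which encodes a GABA-synthesising enzyme, and 0 of Slc17a6; 4168 nuclei) it did not exceed 1.61 CPM. Its relative Pou4f2 lay at 10.3 to 22.2 CPM against at most 1.11 CPM. Both genes were therefore higher in the ganglion nuclei of each library, with no overlap of the populations.

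The neurofilament genes Nefl and Nefm, whose products fill and widen the axon, gave the same picture. Nefm was at 167, 160 and 164 CPM with saline and at 155, 113 and 160 CPM with IL-27, against 3.38 to 8.65 CPM in amacrine nuclei. Nefl was at 138, 126 and 200 CPM and at 118, 78.0 and 109 CPM, against 10.3 to 18.0 CPM. Of the 806 nuclei, 765 held a UMI of Pou4f1, Pou4f2, Nefl or Nefm, or 94.9% (exact 95% interval 93.2% to 96.3%; such intervals cover counting error only), and 41 held none. The data thus bear the ganglion cell label, also in the levels of genes that did not choose the nuclei.

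**Figure D1:**
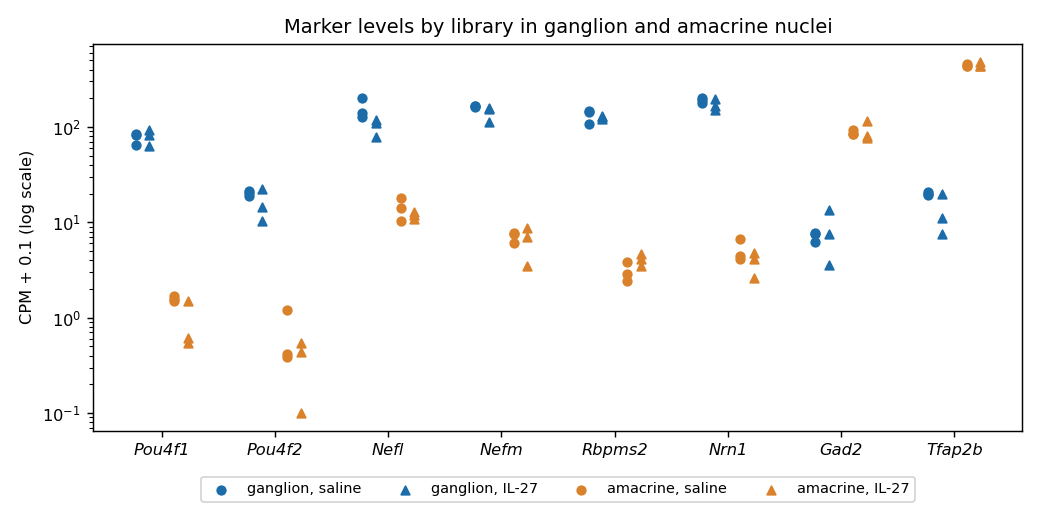
Level of 8 genes in each library, as CPM + 0.1 on a log axis, with circles for saline and triangles for IL-27, blue for ganglion and orange for amacrine nuclei. Pou4f1, Pou4f2, Nefl, Nefm, Rbpms2 and Nrn1 are higher in ganglion nuclei of all 6 libraries, and the amacrine genes Gad2 and Tfap2b are lower.

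Markers of other cell types were also detected, and how much of this was RNA of other cells was not tested. The 6 amacrine markers, Gad2 and Tfap2b among them, were all detected, at a summed 149 to 193 CPM with saline and 135 to 155 CPM with IL-27, against 1507 to 1740 CPM in amacrine nuclei. Rod markers (7 of 7 detected) summed to 152 to 213 CPM with saline and to 76.2 to 194 CPM with IL-27, the lowest in IL-27 replicate 5. Bipolar markers, which include the glutamate receptor gene Grik1, summed to 428 to 576 CPM with Trpm1 at 0. Muller markers summed to 129 to 197 CPM with Abca8a at 0, both zeros being set by the rule. Horizontal cell markers summed to 99.7 to 134 CPM, above the 41.9 to 51.8 CPM of amacrine nuclei. They include Onecut1 and Onecut2, which are also on the list of ganglion cell transcription factors. Cone markers summed to 20.2 to 44.3 CPM, microglia markers to 80.3 to 120.5 CPM and astrocyte markers to 2.89 to 6.62 CPM. Gad1 or Gad2 was seen in 115 of the 806 nuclei (14.3%), and Gad1 at 2 UMIs or more in 16.

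At the edge of the rule, 282 nuclei held exactly 2 UMIs of Slc17a6 and had Pou4f1 at 78.1 CPM and Nefm at 152 CPM. The 524 nuclei with 3 or more UMIs had 76.0 and 153 CPM. Just outside, 397 nuclei with 1 UMI of Slc17a6 and at least 1 of Rbpms had 68.0 and 123 CPM at a lower median depth of 8170 UMIs. Only 8 members held a single UMI of Rbpms, with Pou4f1 at 71.6 CPM and Nefm at 315 CPM at a median depth of 9418 UMIs. The 26 nuclei that met the rule but for Rbpms had Pou4f1 at 17.0 CPM, Nefm at 17.0 CPM and Gad1 at 56.8 CPM. Their median depth was 4037 UMIs. The Slc17a6 threshold therefore ran through a population with similar marker levels on both sides. Across the Rbpms threshold the levels differed, but they come from few nuclei, and those outside were shallower.

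Sums per library were compared between ganglion and amacrine nuclei, with the library as a block. Both populations were selected on expression in the same nuclei, so the folds and counts that follow describe the selected nuclei and test no treatment. edgeR called 3531 genes higher in ganglion nuclei, 25.9% of the 13639 tested at an adjusted p under 0.05, and 3601 lower, or 26.4%. When scaled to library totals alone, 2874 of 7339 calls were higher (39.2%, against 49.5% of the calls above). The transcripts that stood out most were noncoding, and the leading one lay next to Pou4f1.

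D130079A08Rik, a long intergenic noncoding RNA, was at 1337 ± 140 CPM (SD, n = 6) in ganglion nuclei and at 4.36 ± 2.54 CPM in amacrine nuclei, a log2 difference of 8.24 ± 0.15 (SE). In GENCODE M21 (GRCm38) it lies at chr14:104288431-104459336 on the minus strand, 2340 bases from the end of Pou4f1 (chr14:104461676-104467999, also on the minus strand). D130009I18Rik, a further intergenic noncoding RNA at chr14:104612791-104966783 on the plus strand, was at 171 CPM against 2.97 CPM, a log2 difference of 5.88 ± 0.11. It lies on the other side of Pou4f1, and its nearest coding gene is Rnf219, 90146 bases away. Pou4f1 itself differed by a log2 of 6.08 ± 0.16, the largest value among protein-coding genes that averaged at least 50 CPM. The build of the authors' own reference is not named in the sources used here; 99.6% of the gene identifiers matched this annotation.

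Gm26632 differed by a log2 of 7.92 ± 0.13, at 351 to 426 CPM against at most 3.04 CPM. It is an antisense transcript inside Rbpms, which chose the nuclei, so it is not independent of the rule. The noncoding transcripts 6330411D24Rik (786 against 10.4 CPM) and Gm32647 (707 against 16.6 CPM) differed by 6.30 ± 0.13 and 5.47 ± 0.10. The coding genes that followed were Nrn1, which encodes the membrane-anchored neurite growth factor neuritin (5.43 ± 0.09), Rbpms2, a paralogue of Rbpms (5.33 ± 0.10), and Srgap1, a GTPase-activating protein of Slit and Robo signalling (5.31 ± 0.07). All of these were higher in 6 of 6 libraries.

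The 250 bases before the RefSeq start sites of Pou4f1, Rbpms2 and Srgap1 (GRCm38.p6), on the strand of the gene, are shown because they are promoters of leading ganglion genes. The homeodomain core TAATTA, which reads the same on both strands, was searched and would be in capitals.
Pou4f1, chr14:104468000-104468249, minus strand: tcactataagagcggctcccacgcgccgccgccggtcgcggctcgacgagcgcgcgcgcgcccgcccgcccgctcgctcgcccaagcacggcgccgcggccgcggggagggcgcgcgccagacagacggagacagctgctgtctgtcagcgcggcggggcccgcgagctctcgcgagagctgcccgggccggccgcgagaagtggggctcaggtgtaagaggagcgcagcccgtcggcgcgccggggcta
Rbpms2, chr9:65630332-65630581, plus strand: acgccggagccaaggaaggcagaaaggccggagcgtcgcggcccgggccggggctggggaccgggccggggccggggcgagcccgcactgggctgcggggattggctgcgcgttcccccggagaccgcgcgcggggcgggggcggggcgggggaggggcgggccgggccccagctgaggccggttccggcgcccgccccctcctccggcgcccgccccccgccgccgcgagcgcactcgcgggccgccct
Srgap1, chr10:122047316-122047565, minus strand: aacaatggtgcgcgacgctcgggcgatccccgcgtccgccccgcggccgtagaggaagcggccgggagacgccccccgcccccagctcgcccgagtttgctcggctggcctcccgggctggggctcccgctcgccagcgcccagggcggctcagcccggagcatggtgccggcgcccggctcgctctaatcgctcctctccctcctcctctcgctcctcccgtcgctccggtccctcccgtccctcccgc
None of the 3 windows held TAATTA, and their G and C content was 78.0%, 84.8% and 76.4%. Over windows of the same length the core was found in 4.84% of all 32851 and in 2.79% of those of the genes tested. It was in 2.93% of those of genes called higher in ganglion nuclei and in 3.33% of those of genes called lower.

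The genes that were lowest in ganglion relative to amacrine nuclei included the amacrine transcription factors Tfap2a (7.43 against 197 CPM, log2 difference -4.75 ± 0.15) and Tfap2b (16.3 against 447 CPM, -4.72 ± 0.11). Next to them were Gm26688, an antisense transcript within Tfap2a (-4.87 ± 0.17), and Gm14204, which lies 44 bases from Slc32a1, the gene of the vesicular transporter for GABA and glycine (-4.94 ± 0.15). The growth factor genes Pdgfd and Fgf10 differed by -5.69 ± 0.13 and -5.58 ± 0.24. Ankfn1, A330049N07Rik, the receptor phosphatase gene Ptprk and Dach2 made up the rest, between -5.50 and -4.59. All were lower in 6 of 6 libraries.

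**Figure D2:**
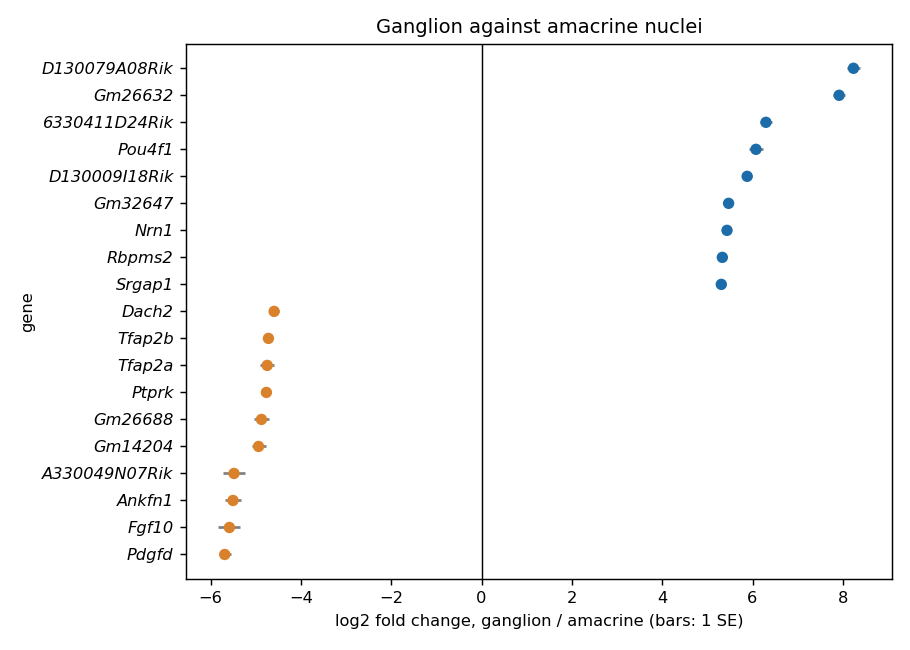
Log2 fold change of 19 genes between ganglion and amacrine nuclei, with bars of 1 SE, 9 of them higher and 10 lower. Values run from 8.24 for D130079A08Rik to -5.69 for Pdgfd, and no bar reaches 0.

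Among 23 ganglion cell transcription factors tested, 18 were called higher in ganglion nuclei and 3 lower, with a median log2 difference of 1.63 against -0.00147 over all genes. Ebf1, a helix-loop-helix factor, was at 1628 to 1955 CPM against 69.3 to 163 CPM (4.37 ± 0.13), and Isl2, a LIM-homeodomain factor of ganglion cells that project to the opposite side of the brain, at 9.17 against 0.144 CPM (5.70 ± 0.37). Onecut1 (3.89 ± 0.19) and Klf7 (1.52 ± 0.05) were also higher. Nhlh2, Bcl11a and Barhl2 were lower, Nhlh2 by -2.58 ± 0.19.

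Most genes of the axon cytoskeleton and initial segment were higher in ganglion nuclei. Of 29 neurofilament and axon cytoskeleton genes, 27 were higher and 2, Map2 and Basp1, lower, with a median of 1.11. Besides Nefm (4.63 ± 0.09) and Nefl (3.39 ± 0.09), the microtubule regulator Stmn2 stood at 244 against 45.7 CPM (2.50 ± 0.07). Of 20 sodium channel and initial segment genes, 17 were higher and 1 lower, with a median of 0.69. The channel genes Scn1a (1.44 ± 0.05) and Scn9a (1.65 ± 0.06) were among them, and Fgf13, which binds sodium channels, was the exception (-2.63 ± 0.06). Of 24 transport motors, 12 were higher and 4 lower, with a median of 0.13, led by Dync1i1 (0.98 ± 0.06) and Kif5a (0.91 ± 0.06).

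Receptor and channel families were split instead. Of 33 potassium channel genes, 15 were higher and 14 lower (median -0.03). Kcnip4, an auxiliary subunit of A-type channels, reached 14655 CPM, or more than 1 of every 100 UMIs, against 2634 CPM (2.56 ± 0.07), and its partner Kcnd2 differed by 2.87 ± 0.05, while Kcnab1 was lower (-3.45 ± 0.08). Of 24 glutamate receptor genes, 7 were higher, Grin3a among them (2.34 ± 0.10), and 14 lower, such as Grm8 (-1.93 ± 0.06). Of 27 receptors for GABA, glycine and acetylcholine, 8 were higher, with the nicotinic subunits Chrna6 (3.24 ± 0.11) and Chrnb3 (2.05 ± 0.07), and 15 lower. Of 15 calcium channel genes, 6 were higher and 7 lower.

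Of 15 genes for making and moving transmitters, 13 were lower, among them Slc32a1 (-3.84 ± 0.14) and Gad2 (-3.46 ± 0.15), and 1 was higher. That gene was Adcyap1, which encodes the peptide PACAP of melanopsin cells, at 8.04 against 0.136 CPM, and it was also detected in nuclei with Eomes or Opn4, at 11.2 ± 10.5 CPM (SD). Of 44 guidance and adhesion genes, 23 were higher and 17 lower, with Nrp1, a semaphorin receptor (3.49 ± 0.06), and Ephb1 (2.52 ± 0.08) against Robo1 (-2.42 ± 0.08). Of 22 neurotrophic genes, 8 were higher and 9 lower. Bdnf, a survival factor of these neurons, was at 76.9 against 11.5 CPM (2.84 ± 0.14).

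Of 23 axon injury and stress response genes, 10 were higher and 2 lower, led by Sox11 (2.67 ± 0.13) and by Nmnat2, which maintains axons (0.85 ± 0.05). Of 24 apoptosis and necroptosis genes, 5 were higher and 4 lower, and of 44 interferon response genes 11 and 10. Heat shock genes split 6 to 5 of 20, and immediate early genes 2 to 5 of 17. Over all genes tested 25.9% were higher and 26.4% lower. The apoptosis, interferon, heat shock and immediate early counts lay near or below these shares. Ribosomal protein genes were higher in 2 and lower in 27 of 80, and oxidative phosphorylation genes higher in 10 and lower in 3 of 79. All 20 rod genes were lower in ganglion nuclei (median -1.04). The rule kept Trpm1, Abca8a and Slc6a9 out of ganglion nuclei but not out of amacrine nuclei, where Trpm1 stood at 130 to 273 CPM, and the part of this difference in the rod values was not tested.

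Types among the ganglion nuclei were followed with 44 subtype markers, after each nucleus had been thinned to 2000 UMIs so that shares compare at 1 depth. All 806 nuclei reached that depth. For 13 markers the exact 95% interval of the share lay above the share in amacrine, bipolar and Muller nuclei, shares that hold free RNA as well as any expression in those cells. The GABA receptor subunit gene Gabrg3 was seen in 39.6% of ganglion nuclei (50.1% without thinning) and 25.6% of amacrine nuclei. The calcium-binding protein gene Calb2 was seen in 23.8% (61.3%), and the chromatin gene Satb1 in 20.7% (62.7%).

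Bnc2, a zinc finger gene, was seen in 14.1% of thinned nuclei, with an interval of 11.8% to 16.7%, against 1.14% of amacrine nuclei. Trarg1 was at 6.08% against 0.146%, Pvalb, of the calcium buffer parvalbumin, at 4.34% against 0.95%, and the neuropeptide gene Penk at 1.74% against 0.292%. Spp1, Cartpt, Plpp4 and Irx3 were also among the 13. Foxp2 was in 11.4% of ganglion nuclei and 1.27% of amacrine nuclei but in 38.7% of Muller nuclei. The interval of Tbr1 (1.12%, 0.512% to 2.11%) held its share in amacrine nuclei (0.657%), and Neurod2 was seen in 0.372% of ganglion and 0.536% of amacrine nuclei.

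**Figure D3:**
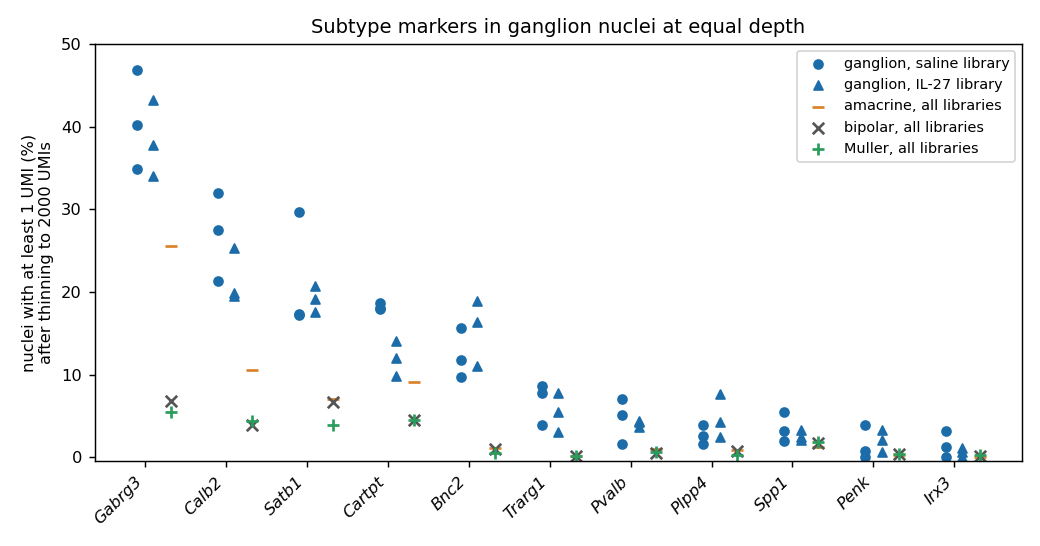
Share of ganglion nuclei with at least 1 UMI of 11 of these subtype markers after thinning to 2000 UMIs, in each saline (circles) and IL-27 (triangles) library, beside the shares in amacrine, bipolar and Muller nuclei over all libraries. Gabrg3, Calb2 and Satb1 have the highest shares, and the libraries of the groups overlap for all but Cartpt.

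Markers were also crossed at full depth, as a description. Pou4f1 occurred in 70 of 136 nuclei with Pou4f2 (51.5%, exact 95% interval 42.8% to 60.1%) and in 347 of 670 without it (51.8%, 47.9% to 55.6%). Foxp2 occurred in 67 of 417 nuclei with Pou4f1 (16.1%, 12.7% to 19.9%) and in 64 of 389 without it (16.5%, 12.9% to 20.5%). The intervals of each pair overlapped. Nuclei with Pou4f1 were the deeper ones in 5 of the 6 libraries. Pou4f1 was found in 51.7% of the 806 nuclei, Pou4f2 in 16.9% and Pou4f3 in 6.7%, and 62.3% held at least 1 of the 3.

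The same thinned shares were compared between treatments. No marker could pass the exact permutation test, since 3 against 3 libraries cannot go below p = 0.1, and after Benjamini-Hochberg adjustment over the 44 markers the smallest value was 0.978. The groups did not overlap for 4 of the 44 markers. By level, they did not overlap for 3.58% of all genes tested that were higher and for 5.63% that were lower. The 4 markers are therefore given as values only. Cartpt, which encodes the neuropeptide CART of direction-selective types, was in 18.7%, 18.0% and 18.1% of saline nuclei and in 14.0%, 12.1% and 9.89% of IL-27 nuclei. Its level overlapped, at 147, 149 and 135 CPM against 182, 84.9 and 78.4 CPM, with the highest value in IL-27 replicate 4, so no order is read from the shares. The others were Mmp17, Nmb and Serpine2, in 0.993%, 0.372% and 3.10% of ganglion nuclei over all libraries, below their 3.70%, 0.828% and 4.85% of amacrine nuclei. Nmb was also below its shares in bipolar and Muller nuclei, whereas Mmp17 and Serpine2 were above theirs.

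The selected nuclei were next set against the 55 ganglion nuclei that met the rule but held Eomes or Opn4 (11, 9 and 5 with saline, 6, 14 and 10 with IL-27). These few nuclei gave sums of 41357 UMIs in the shallowest library, so single values there are noisy. Eomes averaged only 66.4 CPM and Opn4 50.4 CPM in them. A nucleus that expressed either gene can therefore hold no UMI of it and stand among the selected nuclei. edgeR called 148 genes higher in the nuclei without Eomes or Opn4, 1.86% of 7937 tested, and 124 lower, or 1.56%. As above, the nuclei were chosen by expression and the values are a description.

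Genes higher without Eomes or Opn4 included both noncoding and signalling genes. D130009I18Rik was at 171 ± 30.6 CPM (SD, n = 6) against 38.9 ± 76.4 CPM (3.13 ± 0.41 SE). In saline replicate 6 the levels were equal, at 193 CPM in both, and the other 5 libraries had 0 to 27.4 CPM in nuclei with Eomes or Opn4. Pde5a, a phosphodiesterase of cyclic GMP, was at 51.4 to 90.0 CPM against 0 to 24.2 CPM (3.01 ± 0.43), and Pde3a, which degrades cyclic AMP, differed by 1.53 ± 0.26. 4930447N08Rik lies on the opposite strand within Pde5a (1.96 ± 0.38). The matrix gene Hmcn1 (1.83 ± 0.39), the scramblase-family gene Ano3 (1.52 ± 0.20) and Frmpd4 (1.51 ± 0.24) followed, with the semaphorin gene Sema6a, Gm13944 and Ogfrl1. With stricter members (at least 4 UMIs of Slc17a6 and 2 of Rbpms), 4930447N08Rik, Hmcn1, Gm13944 and Ogfrl1 no longer passed the threshold.

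Genes higher in the nuclei with Eomes or Opn4 included Tbx20, a T-box factor of photosensitive types (4.85 against 60.3 CPM, -3.74 ± 0.44), and Prkcq, a protein kinase C (11.0 against 145 CPM, -3.75 ± 0.29). Il1rapl2, an accessory protein of the interleukin 1 receptor family, was at 133 ± 68.6 against 1157 ± 670 CPM (-3.16 ± 0.30). The opioid receptor gene Oprm1 (-2.70 ± 0.30), the secreted factor gene Ndnf (-2.56 ± 0.23) and Tmcc3 (-2.27 ± 0.18) were among the others. Ccdc192 and its antisense neighbours Gm19519 and 4930511M06Rik were all lower without Eomes or Opn4 (-2.97, -2.95 and -2.68), as was Gm17171 (-2.45). All of these genes were lower without Eomes or Opn4 in 6 of 6 libraries. Il1rapl2 was no longer past the threshold with stricter members.

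**Figure D4:**
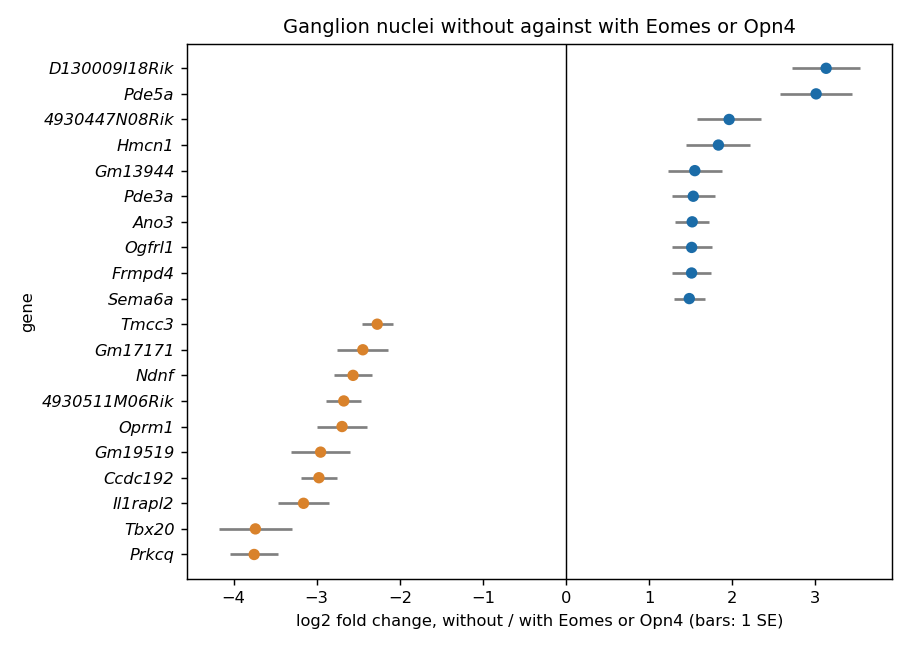
Log2 fold change of 20 genes between ganglion nuclei without and with Eomes or Opn4, with bars of 1 SE, 10 per direction. The values run from 3.13 for D130009I18Rik to -3.75 for Prkcq, and the bars are wider than in the comparison with amacrine nuclei.

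Of 17 ganglion transcription factors, 2 were higher without Eomes or Opn4, Pou4f1 (1.18 ± 0.30) and Bcl11b (1.55 ± 0.44), and 2 were lower, Pou4f2 (17.9 against 46.2 CPM, -1.48 ± 0.33) and Onecut1 (-1.04 ± 0.25). Of 21 subtype markers, 4 were higher, Foxp2 among them (3.58 ± 0.56), and 4 lower, with Tbx20, Il1rapl2 and Igf1 (-1.63 ± 0.22). Of 37 guidance genes, 9 were higher, such as Dcc (1.07 ± 0.16) and Slit2 (0.94 ± 0.17), and 4 lower, such as Chl1 (-1.32 ± 0.23). Of 22 glutamate receptors 3 were higher (Grm7, Gria3 and Grik1, 0.84 to 0.99) and 0 lower. Of 23 receptors for GABA, glycine and acetylcholine 4 were higher, Chrm2 (2.05) and Gabrb2 (1.19) among them, and Gabra3 was lower (-1.88 ± 0.31). The median over all genes was 0.02.

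Of 29 potassium channel genes, Kcnd2 (1.12 ± 0.19) and Kcnd3 (0.71 ± 0.19) were higher and Dpp6, a subunit of the same channel complex, lower (-0.79 ± 0.16). Single genes passed in further lists. Prph, an intermediate filament gene, was lower (-2.34 ± 0.42), as were Cacna2d3 (-0.86 ± 0.16), Irf2 (-0.69 ± 0.19) and the immediate early gene Junb (12.7 against 38.7 CPM, -1.86 ± 0.40). The rod list gave 1 call, Mef2c, which neurons also express (0.85 ± 0.23). No gene of the other 10 lists passed.

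The question of the treatment was then put to the ganglion nuclei. edgeR called 0 of 11676 genes between IL-27 and saline at an adjusted p under 0.05, or 0%, and the smallest adjusted p was 0.998. Before adjustment 196 genes (1.68%) had a p under 0.05 and were higher, and 230 (1.97%) were lower. The groups did not overlap for 418 genes that were higher (3.58%) and 657 that were lower (5.63%). DESeq2 also called 0, and before adjustment it put 74 genes above and 66 below; the fit with Xist as a covariate called 0 as well. Leaving out IL-27 replicate 4 gave 2 calls, Il1rapl2 (-1.53 ± 0.24 against -0.82 ± 0.30 with all libraries) and Gm20559 (1.80 ± 0.27). The genes that follow are given as values, and none of them passed the test with the filter on low counts. With no such filter Cngb3 passed (edgeR, adjusted p = 0.0152).

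Of the genes without overlap between groups, Hsp90aa1, the inducible cytosolic chaperone HSP90, stood at 83.5, 89.5 and 101 CPM with saline and at 51.7, 58.3 and 68.2 CPM with IL-27 (-0.62 ± 0.14). Pvalb was at 21.4, 19.7 and 30.5 CPM and at 9.85, 12.7 and 9.34 CPM (-1.10 ± 0.26). Junb, a subunit of the AP-1 transcription factor, was at 13.7, 16.9 and 23.8 CPM and at 8.37, 5.78 and 7.47 CPM (-1.27 ± 0.31). In each of these the lowest saline value was above the highest IL-27 library. Gpx4, a peroxidase that protects lipids, averaged 37.8 against 21.6 CPM (-0.79 ± 0.20), and Eid2, an inhibitor of differentiation, 10.1 against 3.59 CPM (-1.42 ± 0.37).

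Among genes that were higher, Gtdc1, a glycosyltransferase-domain gene, was at 162, 161 and 157 CPM with saline and at 209, 206 and 250 CPM with IL-27 (0.48 ± 0.11). The sorting receptor gene Sorcs3 was at 217, 161 and 217 CPM and at 245, 273 and 291 CPM (0.46 ± 0.12). Cngb3, which encodes a channel subunit of cones, was at 12.2, 5.63 and 2.98 CPM and at 16.2, 23.7 and 17.7 CPM (1.40 ± 0.36), and stood at 123 CPM in amacrine nuclei. Mei4 (0.45 ± 0.11) and Gm33228 (0.55 ± 0.15) completed the 5, and all of their IL-27 libraries lay above the saline ones.

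**Figure D5:**
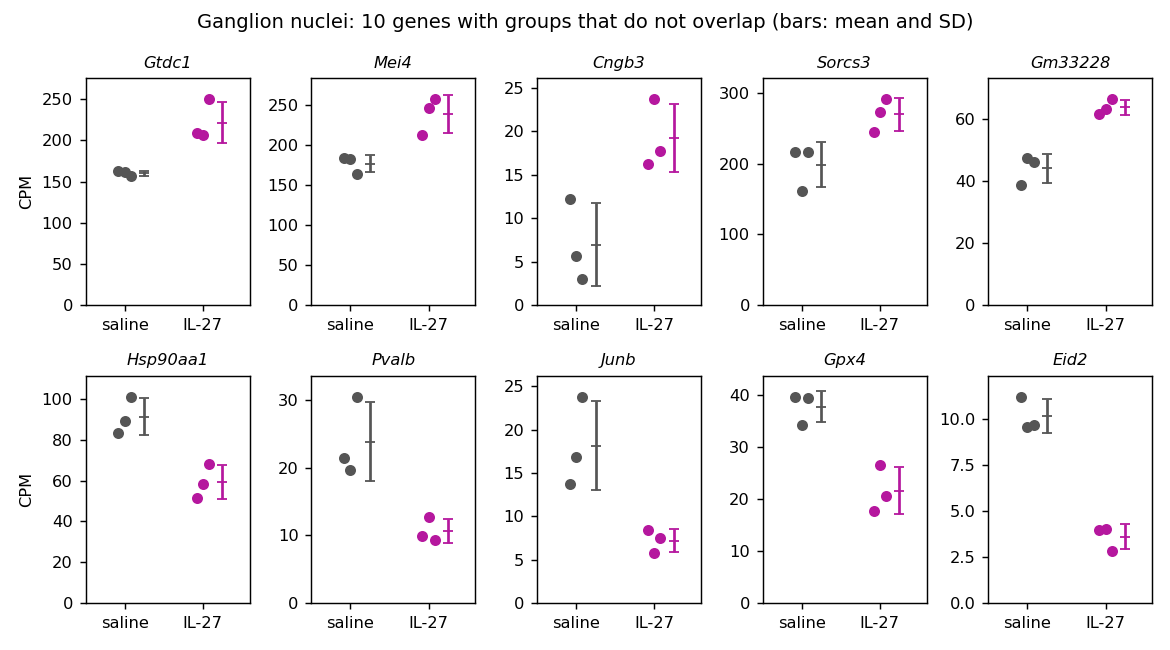
Level in CPM of 10 genes in ganglion nuclei, 1 point per library, with the mean and SD of each group of 3 beside the points. Gtdc1, Mei4, Cngb3, Sorcs3 and Gm33228 are higher and Hsp90aa1, Pvalb, Junb, Gpx4 and Eid2 lower in all IL-27 libraries. None passed the adjusted threshold with the filter on low counts.

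The receptor of IL-27 pairs Il27ra with the shared subunit Il6st and signals through JAK kinases to STAT proteins. Il27ra had 0 UMIs in all 806 nuclei, which allows up to 0.372% of nuclei with a UMI (3 counts of the total), or 0.302 CPM over the summed UMIs. This limits nuclei in which a UMI was seen, not nuclei that express the gene. Il6st was at 40.7, 46.7 and 35.7 CPM with saline and at 44.3, 42.2 and 35.5 CPM with IL-27, close to the 42.1 CPM of amacrine nuclei. After thinning, 6.33% of ganglion nuclei held an Il6st UMI, beside 7.38% of amacrine and 19.4% of Muller nuclei. Il27 itself was at 29.0, 19.7 and 24.6 CPM and at 18.7, 14.4 and 12.1 CPM, without overlap (-0.63 ± 0.24). Its thinned share of 4.34% was near those of amacrine (3.73%), bipolar (3.66%) and Muller nuclei (5.17%). The Il27 locus overlaps Apobr on the other strand, and the source of these UMIs was not tested.

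Of the 19 tested genes of the IL-27 receptor, JAK, STAT and SOCS list, 0 passed and 1, Il27, was lower at an unadjusted p under 0.05, with a median of 0.03 against -0.00258 over all genes. Stat3, a transcription factor of this pathway, was at 99.3, 109 and 76.6 CPM with saline and at 72.4, 116 and 102 CPM with IL-27 (0.02 ± 0.17), so the groups overlapped. Socs3, a feedback inhibitor, did not exceed 4.46 CPM in any library.

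Among 31 interferon response genes, 25 had a positive value (median 0.23), 0 passed and 0 reached an unadjusted p under 0.05. Their summed level was 848, 791 and 647 CPM with saline and 569, 918 and 1328 CPM with IL-27, so the lowest and the highest library were both IL-27 libraries. Amacrine nuclei gave a similar order, at 965, 778 and 624 CPM and at 607, 962 and 1037 CPM. Rnf213 (0.63 ± 0.33), H2-T23 (0.75 ± 0.40) and Parp12 (0.59 ± 0.31) had the smallest p of the list.

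Neurofilament and axon cytoskeleton genes were negative in 25 of 28 (median -0.17), with 4 at an unadjusted p under 0.05. They included Nefl (-0.57 ± 0.17), Cplx1 (-0.34 ± 0.16) and Sncg (-0.53 ± 0.24), while Nefm stood at -0.19 ± 0.13. The libraries of the groups did not overlap for Nefl or for Nefm. In the list 4 of 28 genes were lower without overlap, beside 5.63% of all genes tested. Ribosomal protein genes were negative in 75 of 79 (median -0.29, 11 at an unadjusted p under 0.05), led by Rps16 (-0.81 ± 0.23), and their sum was 3130, 2537 and 4101 CPM with saline and 2145, 2334 and 3515 CPM with IL-27. Oxidative phosphorylation genes had a median of -0.20 over 78, and rod genes one of -0.23 over 19, with Sag and Cnga1 among the 3 at an unadjusted p under 0.05. The median mitochondrial share of the same nuclei was 0.195%, 0.179% and 0.277% with saline and 0.153%, 0.135% and 0.268% with IL-27, lowest in the 2 libraries with the lowest ribosomal sums, and its part in these values was not tested. Over all genes 1.97% were lower at an unadjusted p under 0.05. In amacrine nuclei of these libraries 11 of 80 ribosomal protein genes were positive (median -0.08). So were 17 of 80 oxidative phosphorylation genes (-0.07) and 9 of 29 neurofilament and axon cytoskeleton genes (-0.06).

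Immediate early genes were negative in 11 of 12 (median -0.55), with 4 lower at an unadjusted p under 0.05 and 1, Jun, higher. Per1 was at 21.4, 22.5 and 25.3 CPM with saline and at 13.3, 13.3 and 7.47 CPM with IL-27 (-0.93 ± 0.25), and Btg2 differed by -0.89 ± 0.31. Amacrine nuclei, summed from the same libraries, gave negative values for all 17 genes tested (median -0.36). Heat shock genes were negative in 16 of 20 (median -0.16), with Hspa8 at -0.41 ± 0.18 after Hsp90aa1. In amacrine nuclei 4 of 20 heat shock genes were positive (median -0.09). None of these genes passed over all genes.

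The remaining lists stayed near 0 in their medians, and none of their genes passed. Ganglion transcription factors had a median of 0.01 over 22, with Ebf2 at -0.85 ± 0.29, and subtype markers one of 0.00284 over 26, with Calb2 at -0.55 ± 0.21. Glutamate receptors had a median of 0.10 over 22, and Grik4 (0.61 ± 0.18) and Grm5 (0.36 ± 0.11) were higher at an unadjusted p under 0.05. Receptors for GABA, glycine and acetylcholine had a median of 0.08 over 25, with Glra2 at 0.50 ± 0.15 and Chrm3 at -0.35 ± 0.11. Guidance genes had a median of 0.03 over 41, with Sema6d at 0.59 ± 0.16 and Chl1 at 0.55 ± 0.18. Potassium channels (0.02), calcium channels (0.04), sodium channels (0.03), transport motors (-0.02), neurotrophic genes (-0.02) and transmitter genes (0.02) were close to the median of all genes.

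Genes of damage and death had small positive medians in ganglion nuclei. Axon injury and stress response genes had one of 0.12 over 21, with Jun at 5.60, 6.75 and 10.4 CPM with saline and 7.88, 17.3 and 14.0 CPM with IL-27 (0.81 ± 0.36), and Atf5 at 0.88 ± 0.39. Apoptosis and necroptosis genes were positive in 18 of 19 (median 0.19), with Bcl2 at 0.39 ± 0.21 and Ripk1 at 0.44 ± 0.25. Of them 0 reached an unadjusted p under 0.05. Over all genes tested 5790 of 11676 were positive. Amacrine nuclei did not share this direction. There 7 of 28 apoptosis and necroptosis genes were positive (median -0.11), and 11 of 26 axon injury and stress response genes (-0.05).

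Whether the treatment differed between ganglion and amacrine nuclei was tested as an interaction over both populations of each library. It called 1 of 14502 genes (0.0069%), Gm20754, a long noncoding RNA at chr3:73066316-73594830 on the plus strand of GRCm38. In ganglion nuclei it was at 14.3, 19.1 and 29.8 CPM with saline and at 57.6, 43.9 and 12.1 CPM with IL-27. In amacrine nuclei it was at 129, 155 and 259 CPM with saline and at 150, 116 and 77.2 CPM with IL-27. The rule kept Trpm1 out of ganglion but not amacrine nuclei. In the latter Trpm1 was at 132, 174 and 273 CPM with saline and at 130, 154 and 140 CPM with IL-27. The part of RNA from other cells in the amacrine values of Gm20754 was not tested. The difference of the effects was a log2 of 1.57 ± 0.22 (edgeR, adjusted p = 0.0119). The groups overlapped within ganglion nuclei, where IL-27 replicate 10 was the lowest of 6, and edgeR no longer called it when saline library 2 or 6 or IL-27 library 4 or 5 was left out (adjusted p = 0.0642 to 0.254) and with stricter members (adjusted p = 0.466).

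The antisense transcript 4930509J09Rik inside Gm20754 differed in the same direction (1.29 ± 0.29, edgeR adjusted p = 0.794), and without a stated strand setting the reads of the pair may not be separate. Grm5 (0.60 ± 0.13), Ptprz1 (1.58 ± 0.36), Cngb3 (1.45 ± 0.35) and Kcnip4 (0.37 ± 0.09) were more positive in ganglion nuclei without passing, and Tshr, Ndufa11, Gm33125, Tec and Tmsb4x more negative, from -3.97 to -0.63. With stricter members Ptprz1 and Cngb3 changed direction. Between IL-27 and saline in amacrine nuclei alone, 1 of 15276 genes was called (0.00655%), the serine protease gene Prss56 (4.33 ± 0.38), at 0.146 to 0.37 CPM with saline and 5.58 to 6.66 CPM with IL-27. Its level was higher in Muller nuclei, at 2.07 to 8.67 CPM with saline and 61.1 to 243 CPM with IL-27, and in bipolar nuclei it was at 0.275 to 0.948 and 6.97 to 20.3 CPM; the part of RNA from these cells in the amacrine value was not tested. In ganglion nuclei Prss56 was too low to be tested, at 0.509, 0 and 0 CPM with saline and at 2.46, 1.73 and 5.60 CPM with IL-27.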

How the data were processed

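Nuclei from 6 retinal libraries were sequenced, 3 per group. The authors made the deposited UMI counts per gene and nucleus with Cell Ranger (9.0.1 in the submitters' processing notes, 8.0.1 in the file headers) and list Seurat 5.2.1; the genome build is not given in the sources used here. Counts of the selected nuclei were summed per library (Python 3.11.15, scanpy 1.11.5, scipy 1.17.1, numpy 2.4.6). Sums were tested with edgeR 4.0.16 in R 4.3.3 by its quasi-likelihood test (TMM, filterByExpr with a minimum count of 10, Benjamini-Hochberg adjustment at 0.05), with the library as a block between populations and the SE of a log2 difference taken as its size over the square root of F, and with DESeq2 1.42.0 as an alternative; the fits were tested on simulated data. The members and the gene lists were chosen with earlier results of these data known. Between populations, the 10 largest called differences per direction with the same sign in all libraries and a mean of at least 50 CPM were named. For the treatment and the interaction, up to 10 called genes were named, or else the 5 with the smallest p and no overlap. For each list, up to 4 called members, or else up to 3 with the smallest p, were named; further list members were picked after their values were seen. Doublets were scored by Scrublet (expected rate 8%), kept, and left out as an alternative. Shares were thinned to 2000 UMIs. Other settings were another scaling, other filters, stricter members and each library left out. Some genes that these rules name are not reported here.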

Additional observations from a re-analysis of the deposited data

Results flagged for a closer look

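The effect of IL-27 on Gm20754 differed between ganglion and amacrine nuclei by 1.57 on the log2 scale (edgeR interaction, adjusted p = 0.0119). It was 1.01 in ganglion nuclei and -0.64 in amacrine nuclei, where the part of RNA from other cells was not tested. The log2 ratio of ganglion to amacrine level was -3.10, -2.95 and -3.08 with saline and -1.37, -1.38 and -2.57 with IL-27, with 1 of the 3 IL-27 libraries nearer to the saline ones.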

How the results depend on the processing

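The genes with the largest differences between ganglion and amacrine nuclei (10 per direction) kept their direction and call in each alternative run; the further list members were not followed through the alternatives. Between nuclei without and with Eomes or Opn4, 498 genes were called with no filter on low counts and 47 with stricter members, and 176 (without saline replicate 1) to 327 with a library left out. For IL-27 against saline, 13 genes were called with no filter, Cngb3 and Il1rapl2 among them. With a library left out 0 to 2 were called, the 2 without IL-27 replicate 4. For the interaction, 35 were called with no filter, 0 without nuclei over 2 median absolute deviations, 0 with stricter members and 0 to 2 with a library left out, Gm20754 and Gm30382 without saline replicate 1 and 0 without saline replicate 2 or 6 or IL-27 replicate 4 or 5. With stricter members the values of Ptprz1 and Cngb3 became -1.01 and -0.39. The difference in the ganglion share was 0.0391 without nuclei holding Gad1 or Gad2, 0.0179 without saline replicate 1, and ran from -0.205 to 0.183 (without IL-27 replicate 10) with a library left out. Subtype markers without overlap, 4 of 44 in the main run, numbered 9 with no thinning and 0 at 2 UMIs or more. With a library left out they numbered 5 to 11. Groups with fewer libraries more easily fail to overlap, so these last counts do not compare with the 4. The causes were not tested. No paired analysis was possible because the groups share no replicate numbers. With 91 to 164 nuclei per library, and 5 to 14 in the comparison population with Eomes or Opn4, low genes were measured from few UMIs.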
